A study of Homo sapiens with 10 samples.

Results

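In SKBR3 cells, 693 of 62104 merged H3K27ac regions were wide, distal and listed only with TWEAK. Peaks of the 4 SKBR3 lists that overlapped by 1 bp or more on chromosomes 1 to 22 and X were merged. The regions were chosen by the presence of peaks and their width. A region was kept when it overlapped a peak in each of the TWEAK lists and no peak in the untreated ones, when it lay more than 1 kb from every annotated transcription start site (TSS), and when it was at least 1500 bp wide. Such wide distal gained regions made up 3.94% of the 17596 wide distal regions in this line. Gained regions of any width and position made up 4.61% of all merged regions, 2865 in number. The reverse pattern, both untreated lists and neither TWEAK list, held for 78 wide distal regions, which is 0.443%. These shares use the same 4 lists that chose the regions, and they are a description.

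SKBR3 and MDA-MB-453 are established HER2 breast cancer cell lines, and the study asked how the cytokine TWEAK alters their H3K27ac landscape. The untreated group and the TWEAK group had 2 ChIP-seq libraries each in both lines. All cells were serum starved in optimem for 8 h, and the TWEAK groups then received the ligand at 10 ng/ml over 48 h, with fresh ligand at 24 h. Input samples, 1 per line, have no peak list analysed here.

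H3K27ac is a histone acetyl mark found at active promoters and enhancers, and a distal region that carries it is commonly read as an enhancer. TWEAK is a ligand of the TNF superfamily whose receptor, Fn14, recruits TRAF adaptors. Fn14 is known for activating NF-κB, including the non-canonical route in which RELB pairs with p52, and it can also act through AP-1, the dimers of FOS, JUN and related factors. NF-κB binds κB sites and AP-1 binds TGACTCA or its reverse complement TGAGTCA.

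Read counts were not used, so the depth of the libraries is unknown. The lists held 45157 and 43684 peaks in the untreated libraries and 45371 and 51687 peaks in the TWEAK libraries, and the longest list was that of TWEAK replicate 2. The median fold enrichment of a list was lowest in untreated replicate 1, at 3.61, and ranged from 3.96 to 4.26 in the others. The peak lists fitted the label: all 10 markers of HER2 and luminal epithelium, among them ERBB2, KRT8 and EPCAM, had a peak within 1 kb of a TSS in every SKBR3 list. None of the 5 leukocyte markers had one, and 2 of 5 fibroblast and endothelial markers, COL1A1 and CDH5, did in all 4 lists. The study's methods describe its ChIP-seq of cell lines as done on biological replicates. With 2 libraries against 2, the smallest exact two-sided permutation p for a single value is 0.333, and regions taken from shared libraries depend on each other, so no p-value is given for shares of regions. Ranges in parentheses are Wilson intervals at 95%, for the error of counting regions alone.

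The sequence of the regions was not used to choose them, and 8 stretches are shown because they hold the motifs that the results below turn on. All are from the plus strand of hg38, in lower case, with κB matches and AP-1 matches in capitals. Each shows 60 bases on either side of the match nearest to the midpoint of the region, within the 1000 bp around that midpoint. The first 4 come from the regions of highest fold enrichment that held such a match.
Region near MED14, chrX:40871532-40871661: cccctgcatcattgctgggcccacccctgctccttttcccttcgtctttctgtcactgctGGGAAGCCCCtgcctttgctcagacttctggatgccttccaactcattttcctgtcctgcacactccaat
Region near ABHD17C, chr15:80674306-80674435: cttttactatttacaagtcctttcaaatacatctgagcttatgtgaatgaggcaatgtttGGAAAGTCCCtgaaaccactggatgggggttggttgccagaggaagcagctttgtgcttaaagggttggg
Region in RNF150, chr4:140980990-140981119: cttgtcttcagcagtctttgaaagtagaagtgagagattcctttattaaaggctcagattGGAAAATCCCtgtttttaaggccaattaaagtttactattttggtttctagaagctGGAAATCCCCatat
Region near CNOT4, chr7:135355497-135355623: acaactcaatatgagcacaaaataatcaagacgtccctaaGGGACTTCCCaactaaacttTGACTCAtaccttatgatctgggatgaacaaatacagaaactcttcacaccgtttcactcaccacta
The region in RNF150, of which 2 neighbouring κB matches are shown, held 4 κB matches and 1 AP-1 match in all. In the stretch near CNOT4 a κB match stood beside an AP-1 match. That κB match lay just outside the 1000 bp around the midpoint, so the shares for that window do not count it. The next 3 come from regions whose nearest protein-coding gene belongs to the TWEAK and NF-κB lists described below.
Region near XIAP, chrX:123814965-123815094: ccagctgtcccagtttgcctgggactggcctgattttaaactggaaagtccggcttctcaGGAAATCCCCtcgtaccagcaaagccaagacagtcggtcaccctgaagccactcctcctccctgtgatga
Region near CXCL1, chr4:73917315-73917441: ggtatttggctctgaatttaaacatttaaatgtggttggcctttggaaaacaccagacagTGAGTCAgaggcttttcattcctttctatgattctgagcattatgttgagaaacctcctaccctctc
Region near TNFRSF21, chr6:47182797-47182926: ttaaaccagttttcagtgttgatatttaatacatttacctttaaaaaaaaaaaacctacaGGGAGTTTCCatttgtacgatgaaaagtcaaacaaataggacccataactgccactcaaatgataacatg
The last comes from a region that was also gained in MDA-MB-453.
Region near ARRDC4, chr15:97998831-97998960: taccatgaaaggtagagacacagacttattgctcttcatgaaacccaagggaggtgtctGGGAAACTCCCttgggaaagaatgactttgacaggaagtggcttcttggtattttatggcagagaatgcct
In the stretch near ARRDC4 the capitals run over 11 bases, where a match on one strand overlapped a match on the other.

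The regions were between 1500 and 8207 bp wide, with a median of 1941 bp. Of the 693, 387 were under 2000 bp, 205 were between 2000 and 3000 bp, and 101 were 3000 bp or more. The width came mainly from 1 library. Peaks of TWEAK replicate 2 covered 1500 bp or more of 613 regions, peaks of TWEAK replicate 1 did so in 200, and both did in 158. In 665 regions each TWEAK list had a single peak, and a median of 53.5% of the width was covered in both lists. The widest regions lay in introns of FGD6 (8207 bp), PSMB7 (7310 bp), which encodes a proteasome subunit, ARHGEF28 (6993 bp) and ITPR1 (6719 bp), which encodes an IP3 receptor, and over an exon of TLN2 (7321 bp), which encodes talin 2.

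Fold enrichment, the authors' ratio of ChIP signal to background, was ranked within each list, so that the 100th percentile is the strongest peak. The regions had a median percentile of 33.1 in TWEAK replicate 1, from 0.0495 to 90.1, and of 57.7 in TWEAK replicate 2, from 0.368 to 98.6. The median fold enrichment was 3.33 in replicate 1 and 4.43 in replicate 2. In 616 regions, 88.9%, the percentile was higher in replicate 2. The 50th percentile was exceeded by 180 regions (26.0%) in replicate 1, by 433 (62.5%) in replicate 2 and by 172 in both. In both lists, 25 regions were above the 75th percentile and 64 under the 25th. A q-value under 1e-05 was reached in both lists by 164 regions, in replicate 1 by 173 and in replicate 2 by 432. All of these values come from the lists that chose the regions.

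**Figure D1:**
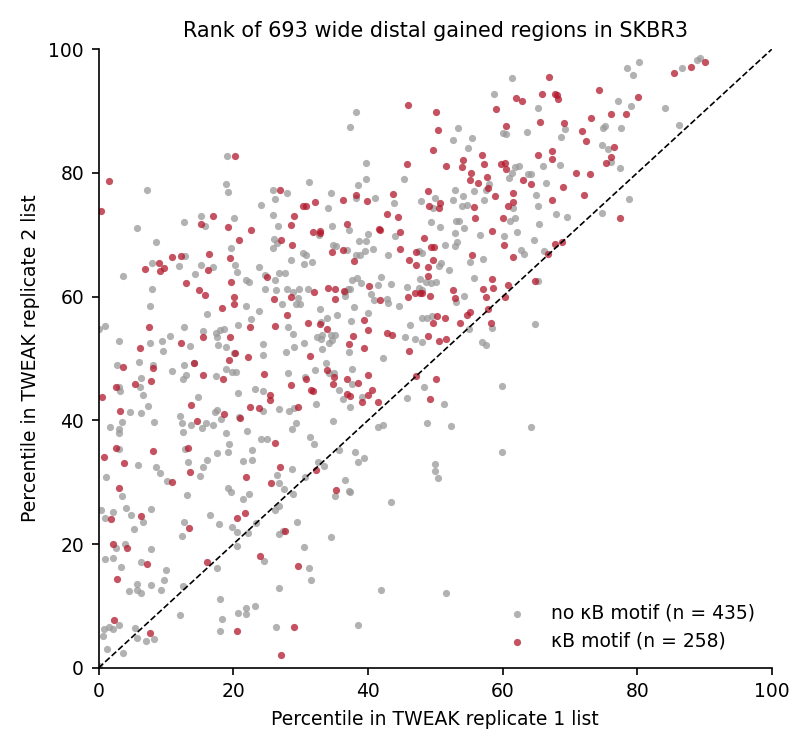
Percentile of fold enrichment of each wide distal gained region in the TWEAK replicate 1 list (horizontal axis) and the TWEAK replicate 2 list (vertical axis), both in percent of the list's peaks, with 258 regions that hold a κB motif in red and 435 without one in grey. The dashed line marks equal percentiles, and 616 of 693 points lie above it.

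Near the width limit, the regions near CACUL1, TSHZ2 and ADAM22 were 1500 bp wide and were kept. Those near CXCL12 (1499 bp), GULP1 (1497 bp) and PHEX (1495 bp) were not. At the distance limit, distances are to any annotated TSS, and a region is named by its nearest protein-coding gene, which can lie much farther away. Regions 1046 bp (nearest gene CLIP3) and 1064 bp (TAX1BP3, itself 4.42 kb away) from such a TSS were kept. Regions at 978 bp (nearest gene RAB14), 977 bp (INHBA) and 963 bp (VASH2) were left out. The region near CACUL1 stood at the 18.9th and 48.3rd percentile of fold enrichment in TWEAK replicates 1 and 2, and the one near CXCL12, 1 bp narrower, at the 18.4th and 71.9th.

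The region with the highest mean percentile was chrX:40869455-40873734, 134 kb from MED14, which encodes a Mediator subunit. Its peaks had a fold enrichment of 10.9 in TWEAK replicate 1 (90.1st percentile) and 16.5 in replicate 2 (97.9th percentile). A region in an intron of KCNN3, a potassium channel gene, followed at chr1:154750015-154752753 with fold enrichments of 10.5 and 18.2. A region in an intron of SLC1A2, a glutamate transporter gene, had values of 10.3 and 17.3. In each of these 3 regions the second replicate gave the higher value, as it did in most regions. The next regions in this order were 4.44 kb from ABHD17C (fold enrichment 9.94 and 15.1), over an exon of TLN2 (9.41 and 14.8) and in an intron of RNF150 (9.02 and 13.9). TLR1, a Toll-like receptor gene, held a region in an intron (7.53 and 16.4). KITLG, which encodes the ligand of the KIT receptor, was the nearest gene of a region 288 kb away (7.12 and 15.0). Of the 12 regions of highest mean percentile, the one in SLC1A2 was the only one that any MDA-MB-453 list held.

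A κB match within the 1000 bp around the midpoint was found in 258 of 693 regions, 37.2% (33.7 to 40.9). The same window held one in 13.7% (13.2 to 14.2) of all wide distal regions and in 12.4% (11.9 to 12.96) of the 14248 wide distal regions present in all 4 SKBR3 lists. The share was 25.8% (23.9 to 27.8) in the 1913 distal gained regions under 1500 bp, and 10.3% (5.29 to 19.0) in the 78 wide distal regions lost with TWEAK. In this window the interval of the wide gained regions overlapped none of these, but the window reaches outside most narrow regions, whose median width was 924 bp. In the 500 bp around the midpoint, the wide gained regions had 20.9% (18.1 to 24.1) and the narrow ones 18.1% (16.5 to 19.9), with intervals that overlap, against 7.46% (7.08 to 7.86) of all wide distal regions. More than 1 match was also more frequent: 67 regions (9.67%) held 2 or more and 13 (1.88%) held 3 or more, against 2.37% and 0.364% of all wide distal regions. Overlapping matches, as in the stretch near ARRDC4, were counted separately in all sets, so these are not counts of separate sites. The share did not rest on the library that gave most of the width. It was 34.8% (27.8 to 42.5) in the 158 regions with 1500 bp or more in each TWEAK list, 34.0% (28.3 to 40.3) in the 238 regions found without TWEAK replicate 2, and 32.0% (29.1 to 35.1) in the 927 found without TWEAK replicate 1.

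An AP-1 match, TGACTCA or TGAGTCA, was found in 235 regions, 33.9% (30.5 to 37.5), against 26.1% (25.4 to 26.7) of all wide distal regions. The narrow distal gained regions had 37.6% (35.5 to 39.8). Unlike κB, the AP-1 difference was not seen without TWEAK replicate 2, where 23.5% (18.6 to 29.3) of 238 regions held a match against 25.2% of all wide distal regions found from those lists. In the 158 regions with 1500 bp or more in each TWEAK list, 29.1% (22.6 to 36.6) held a match, an interval that includes the 26.1%. The difference was also not seen when whole regions were searched, with 51.5% against 52.7%. Both motifs occurred together in 79 regions, 11.4% (9.24 to 14.0), against 3.44% of all wide distal regions, and 414 regions (59.7%) held at least 1 of them.

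**Figure D2:**
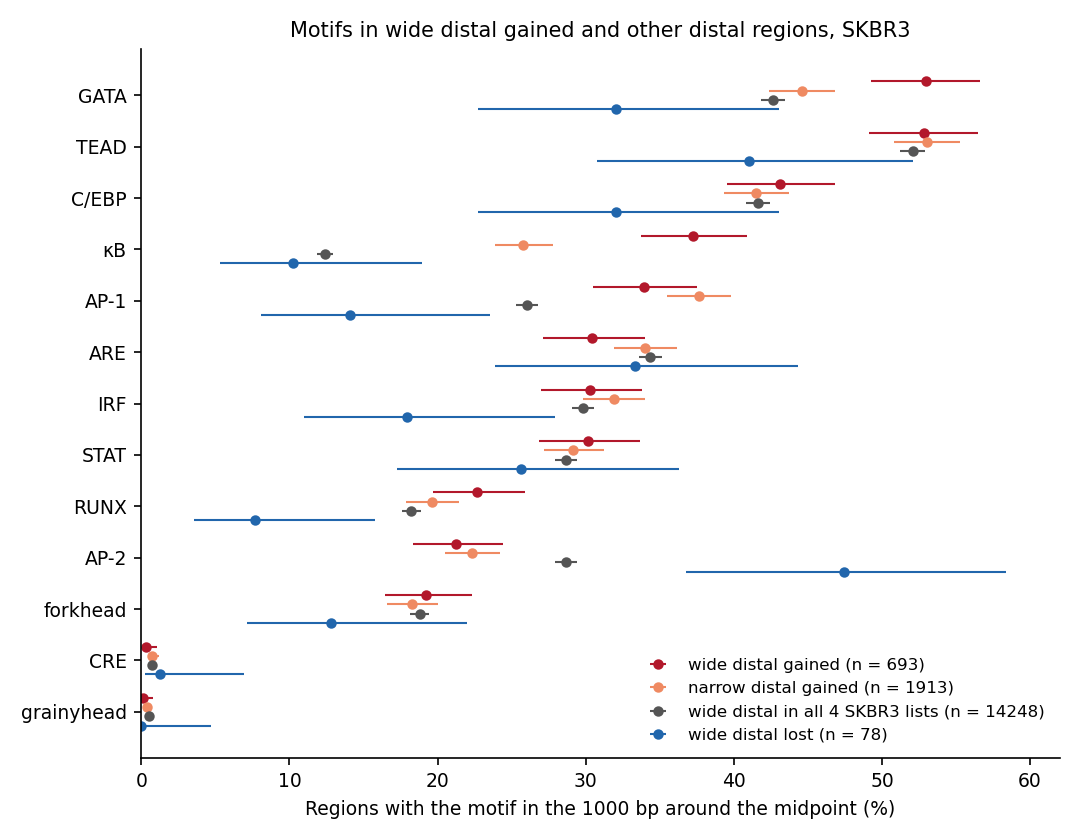
Share of regions, in percent, that hold each motif in the 1000 bp around the midpoint, for wide distal gained regions (red), narrow distal gained regions (orange), wide distal regions in all 4 SKBR3 lists (grey) and wide distal lost regions (blue), with 95% Wilson intervals as bars. The κB row shows the red point at 37.2%, to the right of the orange point at 25.8%, which is closer in a 500 bp window, and of the grey and blue points at 12.4% and 10.3%.

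Of the other factors whose motifs were searched on both strands, GATA and RUNX matches were more frequent in the wide gained regions and AP-2 matches less frequent. GATA factors include GATA3, a luminal breast factor. The GATA motif AGATAA was found in 53.0% (49.2 to 56.6) of the regions against 43.8% of all wide distal regions. The RUNX motif TGTGGTT was found in 22.7% (19.7 to 25.9) against 18.4%. The AP-2 motif GCCNNNGGC, bound by TFAP2 factors, was found in 21.2% (18.3 to 24.4) against 27.9%. The narrow distal gained regions had 44.6% for GATA, 19.6% for RUNX and 22.3% for AP-2 in the 1000 bp window, which reaches outside most of them. The lower AP-2 share was thus not particular to the wide gained regions. These motifs differ in base composition, and the wide gained regions were slightly poorer in G and C, with a median of 42.7% against 44.8% over all wide distal regions. The part of base composition in these shares was not tested. Other windows and the removal of single libraries were examined for κB and AP-1 matches only. The intervals of the other common motifs included the share over all wide distal regions or lay close to it. TEAD (GGAATG) was found in 52.8% against 51.8%, C/EBP (TTGCNNCA) in 43.1% against 41.4%, STAT (TTCNNNGAA) in 30.2% against 28.5% and IRF (GAAANNGAA) in 30.3% against 29.8%. Forkhead (TGTTTAC), the family of FOXA1, was found in 19.2% against 18.5%. The antioxidant response motif TGACNNNGC was found in 30.4% (27.1 to 34.0) against 34.0%. CRE (TGACGTCA) was found in 2 regions and grainyhead (AACCGGTT) in 1.

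The κB consensus allows many forms, and 41 of them occurred in the regions. The form GGGACTTTCC, counted on either strand, was the most frequent, in 47 regions or 6.78% (5.14 to 8.90). It was found in 0.801% of all wide distal regions and in 0.505% of those present in all 4 lists. The form GGGGATTTCC followed with 28 regions, 4.04% (2.81 to 5.78), against 0.449% of all wide distal regions. GGGGAATTCC was found in 23 regions, 3.32% (2.22 to 4.93), against 0.517%. The forms were unequal in this respect, since GGGAAATTCC was found in 11 regions, 1.59% (0.889 to 2.82), against 0.722%. Not every form was more frequent: GGGAGACTCC was found in 4 regions, 0.577% (0.225 to 1.47), against 0.597%. Of the regions shown above, those near ABHD17C and MED14 carry GGGACTTTCC, the latter outside the stretch printed, and those near XIAP and in RNF150 carry GGGGATTTCC, read on the minus strand.

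κB matches lay toward the middle of the regions. In bins of 100 bp on both sides of the midpoint, between 7.94% and 10.5% of the regions held a match within 500 bp, and the share fell to 4.47% between 500 and 600 bp and to 2.31% between 900 and 1000 bp. In wide distal regions present in all 4 lists it stayed between 2.36% and 2.85% over the same bins. In narrow distal gained regions the matches were closer to the midpoint, with 9.67% in the first bin and 2.56% between 400 and 500 bp. For AP-1 the wide gained regions ranged from 5.92% to 9.24% within 500 bp and from 3.90% to 5.92% beyond it, against 6.57% in the first bin and 4.23% in the last in regions present in all 4 lists. Bins beyond 750 bp reach outside the narrowest of these regions.

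**Figure D3:**
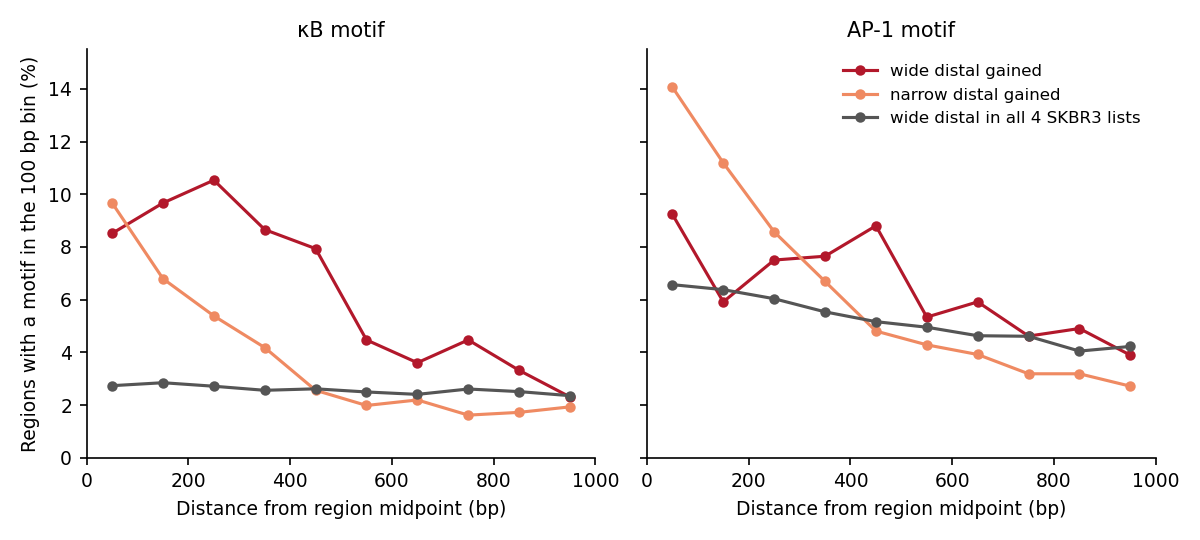
Share of regions, in percent, with a κB match (left) or an AP-1 match (right) in each 100 bp bin, by distance in bp from the region midpoint, with lines for wide distal gained (red), narrow distal gained (orange) and wide distal regions in all 4 SKBR3 lists (grey). The red κB line peaks at 10.5% and falls to 2.31%, where it meets the grey line.

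Within the wide gained regions, κB matches went with rank in the TWEAK lists, which were among the lists that chose the regions. This rank is a level with TWEAK and not a change from the untreated lists. In the lowest tertile by mean percentile (up to the 35.6th), 56 of 231 regions held one, 24.2% (19.2 to 30.2). In the middle tertile it was 90 regions, 39.0% (32.9 to 45.4), and in the highest tertile 112 regions, 48.5% (42.1 to 54.9). Wide distal regions that both TWEAK lists and at least 1 untreated list held were split at the same percentiles, 35.7 and 53.3. They had 10.1%, 10.7% and 14.0%, and their highest range ran to 100, above the 94.0 of the highest wide gained region. AP-1 showed no such order, with 36.8%, 33.8% and 31.2% of the regions from the lowest to the highest tertile and intervals that overlapped, and the regions compared had 21.0%, 24.9% and 28.1%. By width, κB matches were found in 40.3% of the narrowest tertile, 40.7% of the middle tertile and 30.7% (25.1 to 37.0) of the widest tertile.

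**Figure D4:**
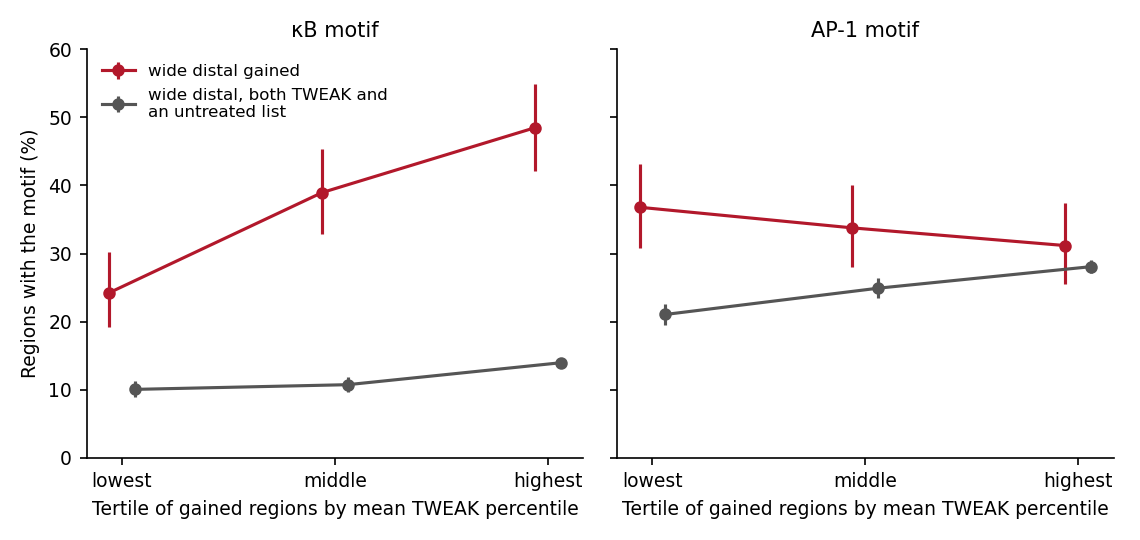
Share of regions, in percent, with a κB match (left) or an AP-1 match (right), with 95% Wilson intervals as bars. Red points show tertiles of the wide distal gained regions by mean percentile in both TWEAK lists. Grey points show wide distal regions that both TWEAK lists and at least 1 untreated list held, split at the same percentiles. The highest grey range ran to 100. The red κB points stand at 24.2%, 39.0% and 48.5%, and the grey ones between 10.1% and 14.0%.

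The regions lay mostly in introns and between genes. Of the 693, 343 (49.5%, 45.8 to 53.2) had their midpoint in an intron of a protein-coding gene, 16 (2.31%) in an exon, 75 (10.8%) in a long non-coding RNA gene and 259 (37.4%, 33.9 to 41.0) outside genes. Over all wide distal regions, 57.0% were intronic and 29.1% were outside genes. The nearest protein-coding TSS was a median of 43.3 kb away, against 31.8 kb over all wide distal regions, and 188 regions (27.1%, 24.0 to 30.6) were more than 100 kb away, against 20.4%. Narrow distal gained regions had a median of 38.6 kb, and 25.9% (24.0 to 27.9) were more than 100 kb away. Distal gained regions of either width were thus somewhat farther from genes. A peak of an untreated list lay a median of 11.7 kb from the wide gained regions. It was within 1 kb of 33 regions, within 5 kb of 210 and more than 50 kb from 122. By chromosome, the regions made up between 1.64% (0.865 to 3.09) of the wide distal regions, on chromosome 19, and 6.23% (4.66 to 8.29), on chromosome 4.

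Most of the regions stood alone. Another one lay within 100 kb of 121 of them, and joining those within 100 kb left 572 single regions, 44 pairs and 11 groups of 3. On chromosome X, 3 regions fell within 30.5 kb, between 108 and 134 kb from MED14, at mean percentiles of 94.0, 71.0 and 54.4. Another 3 fell within 17.8 kb near XIAP at mean percentiles of 78.5, 54.3 and 48.4. Of these, 2 held a κB match and 1 an AP-1 match. A group of 3 within 45.1 kb, between 150 and 187 kb from the nearest TSS of TBC1D9 or RNF150, held both motifs. So did a group of 3 within 60.7 kb, between 533 and 592 kb from JAG1, a Notch ligand gene. Both motifs also occurred in the groups of 3 near PLK2, C4orf36 and DNAH5, so this did not set the groups near TBC1D9 and JAG1 apart.

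Assigning each region to the nearest protein-coding TSS gave 609 genes, 541 of them with 1 region, 54 with 2, 12 with 3 and 2 with 4. These are 3.11% of 19609 protein-coding genes, and the shares of gene lists are read beside that value, without a test. That base includes genes that are nearest to no wide distal region at all. The share of each list nearest to any wide distal region was not computed. The list shares therefore do not show how far a list exceeds what its genes' positions alone would give. A gene that is nearest need not be the one that a region regulates, and no expression values were used. A promoter peak, within 1 kb of a TSS, was present in all 4 SKBR3 lists for 341 of the 609 genes (56.0%, 52.0 to 59.9), against 53.5% of all protein-coding genes. Promoter peaks were gained with TWEAK at 3 of the 609 genes (0.493%) and lost at 5 (0.821%), against 0.347% and 0.648% of all genes.

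Of 16 genes for NF-κB subunits and inhibitors, RELB, NFKBIB and TNFAIP3 were nearest to a region. The region at chr19:44987027-44991720, in an intron of CLPTM1 and 9.74 kb from RELB, was 4694 bp wide and had percentiles of 65.4 and 71.8 in TWEAK replicates 1 and 2. It held 6 κB matches, of which 2 overlap, and 1 AP-1 match, although none of them lay within the 1000 bp around its midpoint. The 2 regions near TNFAIP3, which encodes the NF-κB inhibitor A20, had percentiles of 20.7 and 44.5 and of 4.70 and 41.3. The region in an intron of NFKBIB, which encodes an inhibitor of the IκB family, had percentiles of 7.03 and 4.34, near the bottom of both lists.

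Of 35 genes for TWEAK, TNF receptor and TRAF signalling, 4 were nearest to a region: XIAP, TNFRSF21, CFLAR and CASP8. XIAP encodes an inhibitor of caspases, and its highest region, at chrX:123813111-123816138, had a fold enrichment of 6.54 and 7.43 at percentiles of 75.4 and 81.6. CASP8 encodes the initiator caspase of death receptors. The region in CFLAR, whose product restrains caspase 8, was weaker in TWEAK replicate 1, at the 6.14th percentile, than in replicate 2, at the 45.4th. The region near TNFRSF21, which encodes death receptor 6, had percentiles of 40.6 and 44.9. Of 50 NF-κB target genes, CXCL1, a chemokine gene, had a region 47.3 kb away at percentiles of 51.5 and 68.4, and its nearest untreated peak was 191 kb away. CD83 (12.4 and 39.5) and BCL2L1, which encodes the survival factor BCL-XL (5.25 and 22.4), were the other 2. Together, 10 of 101 genes of these lists were nearest to a region (9.90%). The genes depended on the lists: with q under 1e-05, 3 of the 10 (CFLAR, RELB and XIAP) were again among 10 genes found, XIAP alone was left without TWEAK replicate 2, and RELB and XIAP among the 158 regions wide in both TWEAK lists.

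Of 14 ERBB receptor and ligand genes, 4 (28.6%) were nearest to 8 regions. EGFR had 2 regions, 22.3 and 30.2 kb from its TSS, at percentiles of 6.56 and 44.1 and of 29.7 and 59.7. Its ligand genes HBEGF and TGFA had 2 and 1, and the higher one near HBEGF was 3428 bp wide with percentiles of 60.1 and 86.5. ERRFI1, whose product inhibits EGFR family receptors, had 3 regions, of which the one 120 kb away held 2 κB matches and reached percentiles of 59.0 and 90.4. Of 31 luminal and epithelial transcription factor genes, 7 (22.6%) were nearest to 9 regions: GATA3, TFAP2A, OVOL2, TP63, SOX9, RUNX1 and RUNX2. The higher region nearest to GATA3 lay 578 kb away at percentiles of 39.4 and 56.3, and the one within RUNX1 had percentiles of 27.1 and 69.1. The other region nearest to GATA3 lay 774 kb away, and the one nearest to SOX9 687 kb away. How the genes of the ERBB and transcription factor lists change with the settings was not examined.

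In the other lists 1 or 2 genes were nearest to a region. Of 21 AP-1 family genes, MAF and NFE2L1 were (9.52%), and of 31 STAT, IRF and interferon genes, IFNGR2 was (3.23%). Of 43 migration, adhesion and mesenchymal genes, 2 were (4.65%), of which ITGB8, an integrin gene, had an intronic region at percentiles of 69.3 and 87.2 with an AP-1 match, and MMP2, a gelatinase gene, had one at 31.2 and 61.3. Of 28 genes for NAD, nucleotide and lipid metabolism, 2 were (7.14%), of which NMNAT2, a gene for NAD synthesis, had an intronic region at 49.2 and 43.5.

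The MDA-MB-453 lists, which the choice of regions did not use, held few of them. A peak in any of the 4 lists overlapped 102 of 693 regions, 14.7% (12.3 to 17.6), against 48.6% (47.9 to 49.4) of all wide distal SKBR3 regions. By list, peaks overlapped 83 and 84 regions in the untreated libraries (11.98% and 12.12%) and 90 and 89 in the TWEAK libraries (12.99% and 12.84%). The values of both groups lay close together. The 78 wide distal regions lost with TWEAK had 25.6% (17.3 to 36.3). That is also below the share over all wide distal regions, and its interval overlaps that of the wide gained regions. Narrow distal gained regions had 16.6% (15.0 to 18.4), and wide distal regions present in all 4 SKBR3 lists had 54.6%. With peaks of q under 1e-05 in every list, the share was 28.9% (26.1 to 31.8) of 942 regions against 57.2% of all wide distal regions.

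**Figure D5:**
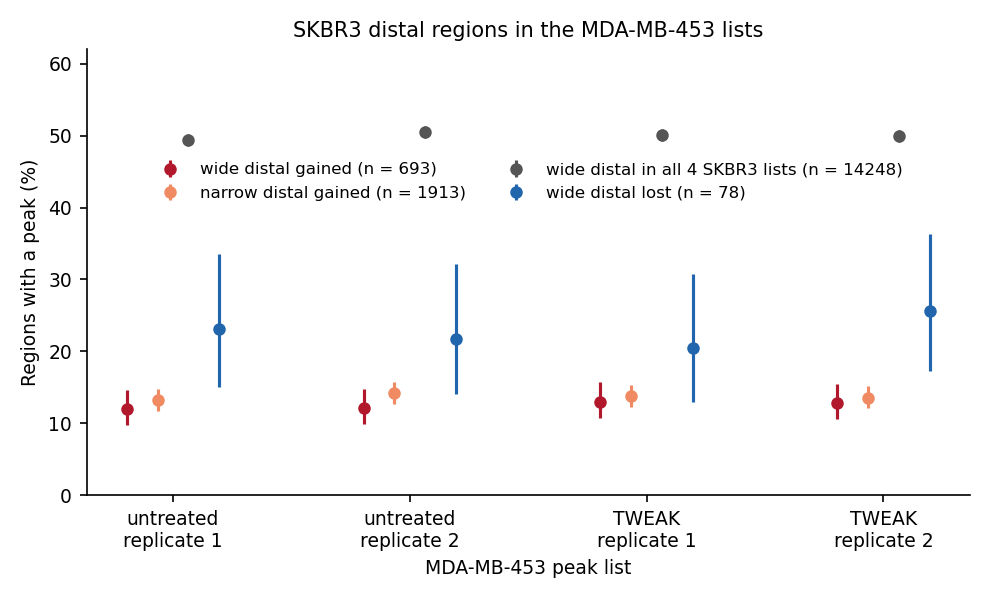
Share of SKBR3 regions, in percent, overlapped by a peak in each of the 4 MDA-MB-453 lists, for wide distal gained (red), narrow distal gained (orange), wide distal lost (blue) and wide distal regions in all 4 SKBR3 lists (grey), with 95% Wilson intervals as bars. The red points lie between 11.98% and 12.99% in untreated and TWEAK lists alike, and the grey points near 50%.

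Of the 102 regions, 75 were in all 4 MDA-MB-453 lists, 3 were gained with TWEAK, none was lost and 24 had another pattern. The 3 gained, 0.433% (0.147 to 1.26), stand beside 0.5001% of all wide distal regions. The first, at chr15:97997479-98000427 and 36.8 kb from ARRDC4, had 3 κB matches, of which 2 overlap. Its percentiles were 76.2 and 89.5 in the SKBR3 TWEAK lists and 30.9 and 31.1 in the MDA-MB-453 TWEAK lists. The second, 138 kb from NFIA, had 53.9 and 74.6 in SKBR3 and 15.8 and 13.9 in MDA-MB-453. In both, each MDA-MB-453 percentile was lower than each SKBR3 one, within lists of different lengths.

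The 75 regions found in all 4 MDA-MB-453 lists were ordinary peaks there, with median percentiles of 48.5 and 50.6 in the untreated lists and 51.6 and 51.4 in the TWEAK lists. The TWEAK mean exceeded the untreated mean by a median of 1.13 percentile points, against −0.296 over the 7087 wide distal SKBR3 regions in all 4 of those lists. Both TWEAK values were above both untreated values in 17 of the 75 (22.7%) and below both in 9 (12%), against 17.0% and 21.7% of the 7087. A region in ITPR1, at the 43.4th and 26.8th percentile in the SKBR3 TWEAK lists, lay above the 99th in every MDA-MB-453 list. κB matches were fewer in these 75 regions, 14 or 18.7% (11.5 to 28.9), than in the 591 that no MDA-MB-453 list held, 234 or 39.6% (35.7 to 43.6).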

How the data were processed

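H3K27ac ChIP-seq was performed in 8 libraries of 2 cell lines, and 2 input samples had no list analysed here. Per the labels and the study's methods, the authors aligned reads to hg38 using Bowtie2, used MACS2 to call peaks library by library against input, and dropped blacklisted regions using bedtools. Versions and calling options are not given in the sources used here. Each deposited list gives the score, the fold enrichment (a ratio over background), the −log10 of a p-value and the −log10 of a q-value of each peak. These columns, of which the score was not used, served only for ranking and filtering within a list. The study compared signal with DiffBind, which needs reads, so presence in a list was compared in its place. Depth is unknown, and list length can follow depth and enrichment.

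Lists were merged with Python 3.11.15, numpy 2.4.6 and pandas 2.3.3, and the steps were checked on simulated intervals and sequences. Presence was an overlap of at least 1 bp. TSS and genes came from GENCODE 44 (basic TSS to define distal, protein-coding TSS to name genes) and sequence from hg38. A total of 15 motifs, of which 2 are alternatives to the κB and AP-1 motifs, were matched to either strand of the 1000 bp centred on each midpoint. The percentile of a region in a list is that of its strongest peak by fold enrichment. The number of columns of other samples left unused was 0.

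The regions, gene lists and comparisons were chosen with earlier results of these data known. Named regions were the 12 of highest mean percentile, the 5 widest, up to 25 whose nearest gene is in one of 9 gene lists, those gained in MDA-MB-453, and those of genes with 3 or more. Other regions were named after their values were seen. These were members of listed genes beyond the 25 (NFKBIB, TNFAIP3, CFLAR, CD83, BCL2L1, IFNGR2, NFE2L1, OVOL2 and the second region of EGFR). The groups near TBC1D9, JAG1, C4orf36 and DNAH5, and regions at the limits, were also named in this way. Some named regions and sequences are not reported here. Alternatives were a stricter q, a 50% overlap, lists of equal size, merging across 1 kb, other widths and TSS distances, every sequence, other windows and motifs, and leaving out each library. No test of significance was run.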

Additional observations from a re-analysis of the deposited data

How the results depend on the processing

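The number of regions depended on the width and the lists: 1264 with an overlap of at least 50%, 1496 with a width of at least 1000 bp, 306 with at least 2000 bp, and 238 (without TWEAK replicate 2) to 1215 (without untreated replicate 2) with 1 library left out. It was 1075 without untreated replicate 1. The share with a κB match was 31.2% with q under 1e-05, 28.0% with 50% overlap, 33.0% and 32.4% at 1000 and 2000 bp of width, 20.9% in a 500 bp window, 52.1% over whole regions, 18.9% with the motif GGGANTTTC, and 28.0% to 34.0% with 1 library left out. Each stood above the share over all wide distal regions under the same setting, for example 7.46% in the 500 bp window and 32.8% over whole regions. The share with an AP-1 match was 29.4% at 2000 bp of width, 18.2% in the 500 bp window, 51.5% over whole regions, 47.5% with TGANTCA, and 23.5% to 34.7% with 1 library left out. The share in any MDA-MB-453 list was 28.9% with q under 1e-05, 27.2% with 50% overlap, 9.81% where MDA-MB-453 peaks had to cover 50%, 9.09% where they had to have q under 1e-05, and 15.1% to 21.6% with 1 library left out. Each was below the share over all wide distal regions under the same setting. Genes of the NF-κB lists numbered 4 at 2000 bp of width (CFLAR, RELB, TNFAIP3 and XIAP) and 1 to 13 with 1 library left out. With q under 1e-05 they again numbered 10, but 3 of them were shared with those reported (CFLAR, RELB and XIAP). Chosen after seeing the data, the requirement of 1500 bp in each TWEAK list left 158 regions, with AP-1 in 29.1%, any MDA-MB-453 list in 17.7% and 2 of these genes. The cause of these changes was not tested, and fewer lists merge into narrower regions by construction. The median rank was 44.9 by −log10 q and 44.3 by fold enrichment, and the top 12 shared 8 regions. The remaining settings moved no share beyond its interval and no count by over 1.5 times. No paired analysis was possible because a region is called from both lists of a group at once, which leaves no difference per replicate number, and because the results come from no test.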
